A study of Mus musculus with 48 samples.

Results

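Wars2 and 8 other mitochondrial aminoacyl-tRNA synthetase genes, Yars2, Fars2, Sars2, Ears2, Nars2, Iars2, Lars2 and Mars2, were followed in the mouse cerebral cortex, 9 of the 24444 genes in the deposited table. Wars2 was selected on its measured values, because earlier results of these data had it higher in the mutant mice at each age, and the other 8 were taken as its comparison. The genotype difference of Wars2 is therefore described without a test, whereas its change with age, and all comparisons of the other 8 genes, did not enter that choice and were tested. All 9 genes lay far above the floor of the table (the value of a gene with no reads, 2.1433), with a lowest value of 7.37 in any mouse, so all 9 passed the filter on low values.

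RNA was taken from the cortex of one hemisphere of 48 male C57BL/6J mice, with 6 wild-type (WT) and 6 heterozygous (HET) animals collected as E14.5 embryos and at 1, 6 and 12 months. HET mice carried 1 Chd8 allele with stop codons inserted by CRISPR/Cas9, a line from a single founder that was backcrossed to C57BL/6J, and WT mice were littermates with 2 intact alleles. Chd8 encodes a chromatin remodeler of the CHD family. In the data, the Chd8 mean fell from 12.55 in WT to 11.92 in HET embryos and, at 1, 6 and 12 months, from 11.72, 11.75 and 11.65 to 11.05, 11.11 and 11.11, with all 6 HET mice below all 6 WT mice at each age. Values are variance-stabilizing transformation (VST) values, which are on a log2 scale, and are compared between mice of 1 gene only, since they are not scaled for transcript length. In whole cortex, fewer cells of a type and less RNA per cell cannot be told apart. Read depth per gene is unknown, and the precision of each mean is judged from the spread between 6 mice.

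All 8 markers of cortical excitatory neurons were well above the floor in each group. In embryos all 8 were higher in HET, with a median difference of 0.36. Of these differences 0 of 8 passed the limma test, which 0.00593% of all genes passed. The mean of the 8 markers per embryo library ranged from 10.78 to 11.81 in WT and from 11.50 to 12.04 in HET. At E14.5, 22 of 23 markers of midbrain, hindbrain and spinal cord were also at least 0.5 above the floor in WT, against 14 of 23 in HET, and their mean per library ranged from 3.28 to 7.04 in WT and from 3.30 to 4.65 in HET. After birth this mean lay between 2.84 and 3.27. In 3 WT embryo libraries, replicates 2, 3 and 5, it was above all 6 HET embryo libraries, and the results of the members and the gene lists that rest on WT embryos were computed with and without these 3.

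Mitochondria carry their own small genome and translate its mRNAs on their own ribosomes. Each aminoacyl-tRNA synthetase joins 1 kind of amino acid to the tRNAs that read its codons, and for most amino acids the mitochondrial enzyme and the cytosolic enzyme are products of separate nuclear genes. The mitochondrial enzymes are made in the cytosol and imported. Brain is rich in mitochondria, and inherited defects of many of these enzymes affect the nervous system.

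Wars2, which encodes the mitochondrial tryptophanyl-tRNA synthetase, lies on the plus strand of chromosome 3 in mm9 from 98944991 to 99043109 (ENSMUSG00000004233.8), and its longest annotated transcript has 6 exons and 4410 bases. No other annotated gene overlaps the exons of this transcript. The 250 bases before its start are shown as the promoter of the gene the results turn on, and those of Ears2 and Iars2, the members with the largest fall and the largest rise after E14.5, are shown for comparison. The sequences are those of RefSeq for GRCm38.p6, at chr3:99140840-99141089 on the plus strand for Wars2, chr7:122067087-122067336 on the minus strand for Ears2 and chr1:185329402-185329651 on the minus strand for Iars2, read 5′ to 3′ along the gene. Capitals mark matches on either strand to 1 of 4 motifs. GCGCATGCG is the core bound by NRF1, a regulator of nuclear genes for mitochondria. CCGGAAG is a core bound by ETS factors. GGGCGG is the sequence bound by Sp1 and its relatives. TATAAA is the element that binds the TATA-binding protein.
Wars2: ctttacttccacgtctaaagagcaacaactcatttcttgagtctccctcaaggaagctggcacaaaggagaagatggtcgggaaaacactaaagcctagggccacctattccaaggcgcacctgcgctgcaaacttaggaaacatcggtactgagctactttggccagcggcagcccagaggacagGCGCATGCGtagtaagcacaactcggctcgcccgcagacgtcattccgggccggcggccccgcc
Ears2: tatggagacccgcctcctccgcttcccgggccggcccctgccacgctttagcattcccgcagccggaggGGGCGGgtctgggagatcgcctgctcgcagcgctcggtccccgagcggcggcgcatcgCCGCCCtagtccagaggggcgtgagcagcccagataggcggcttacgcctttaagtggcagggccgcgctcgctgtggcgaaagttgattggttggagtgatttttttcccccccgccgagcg
Iars2: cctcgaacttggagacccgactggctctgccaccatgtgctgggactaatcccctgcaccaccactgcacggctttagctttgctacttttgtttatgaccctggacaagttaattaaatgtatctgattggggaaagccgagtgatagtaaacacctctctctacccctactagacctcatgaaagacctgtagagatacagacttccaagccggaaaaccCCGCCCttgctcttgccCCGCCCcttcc
The motifs were chosen after the Wars2 promoter had been read. Among the promoters of the 9 members, GCGCATGCG was present in that of Wars2 alone, and 1.45% of all 32851 promoters of this length held it. GGGCGG was present in 7 of 9, with Wars2 and Yars2 as the exceptions, against 32.7% of all promoters. CCGGAAG was present in 2 of 9 (Sars2 and Mars2), against 6.91%, and TATAAA in 0 of 9, against 12.4%. The G and C content of the Wars2 promoter was 56.8%, and the median of all promoters was 52.4%. Promoters of the other members ranged from 51.6% (Iars2) to 71.6% (Fars2). The shares over all promoters were not matched for this content, and GGGCGG holds only G and C.

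Wars2 was higher in HET than in WT cortex at each age, by 0.31 to 0.37 on the VST scale or 1.24-fold to 1.29-fold. At E14.5, WT embryos had a lowest, median and highest value of 7.84, 8.08 and 8.22, and HET embryos 8.30, 8.35 and 8.38. At 1 month, these values were 7.59, 7.84 and 8.07 in WT and 8.10, 8.19 and 8.30 in HET. At 6 months, they were 7.68, 7.98 and 8.05 in WT and 8.20, 8.24 and 8.44 in HET. The genotypes did not overlap at these 3 ages, and the gap between the lowest HET and the highest WT mouse was smallest at 1 month, 0.024. At 12 months, WT mice ranged from 7.78 to 8.20 around a median of 7.87 and HET mice from 8.18 to 8.32 around 8.24. Here 5 of 6 HET mice were above all WT mice, and the sixth lay below a single WT mouse, by 0.017.

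**Figure D1:**
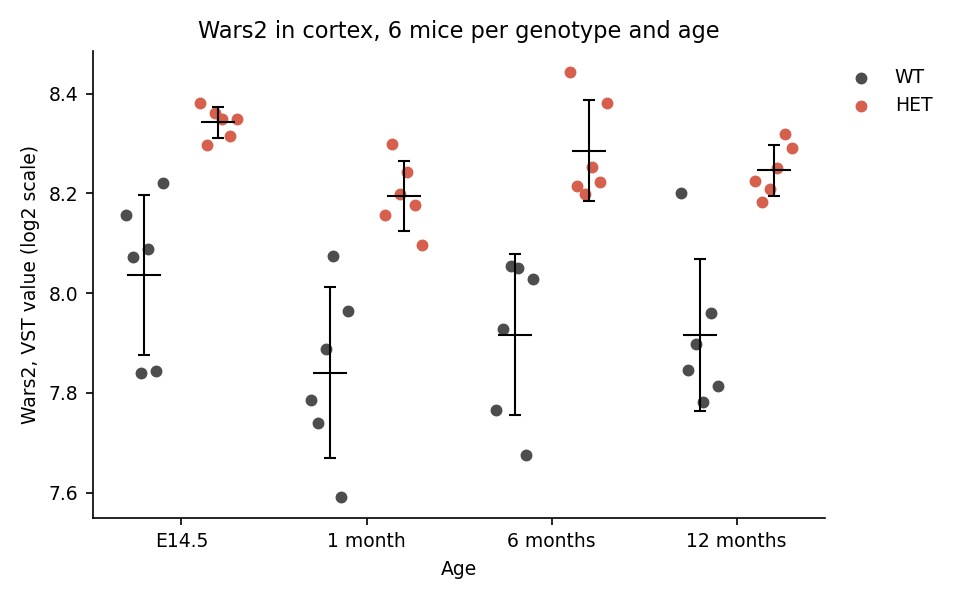
Wars2 in each of 48 mice. The x axis gives the age and the y axis the VST value on a log2 scale, points are mice (grey WT, red HET), and black bars are the mean and SD of 6 mice. HET mice lie above WT mice at the 3 younger ages, and the genotypes touch at 12 months, where the lowest HET mouse is at 8.18 and the highest WT mouse at 8.20.

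HET minus WT differences of the means were 0.31 in embryos and 0.35, 0.37 and 0.33 in mice of 1, 6 and 12 months, with an average of 0.34, or 0.31 without the 3 WT embryo libraries. From one age to the next the difference moved by 0.049, 0.014 and −0.039. The first step was larger without those 3 libraries, from 0.19 at E14.5 to 0.35 at 1 month. Complete separation with HET above WT was seen in 0.172%, 0.383%, 0.226% and 0.37% of all genes at the 4 ages in order. It was seen at 3 ages in 3 genes, Wars2, Tmem209 and Crlf2, and at 4 ages in 0. These shares and counts use the contrast that chose Wars2 and describe where it stands. Within replicates 1 to 3, the difference was 0.32, 0.41, 0.37 and 0.22 at the 4 ages, and within replicates 4 to 6 it was 0.29, 0.30, 0.37 and 0.44. All 6 same-numbered pairs were higher in HET at each age, as any pairing would give at the 3 ages without overlap. These values and those within replicates also use the contrast that chose Wars2.

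At E14.5 the difference was smaller without the 3 WT libraries with high midbrain, hindbrain and spinal cord markers. Wars2 was at 7.84 to 8.07 in these 3 and at 8.09 to 8.22 in the other 3 WT embryos, and the difference from HET embryos was 0.19, or 1.14-fold, without them against 0.31 with them. All 6 HET embryos were above the remaining WT embryos as well. A fit that held this mean as a covariate gave a difference of 0.21. The WT embryo with the highest marker mean, 7.04, had a Wars2 value of 7.84, and the one with the lowest, 3.28, had 8.22. After birth, the marker mean differed little between libraries, and the same fit gave Wars2 differences of 0.42, 0.38 and 0.34 at 1, 6 and 12 months. The part that tissue outside the cortex had in the E14.5 difference was not tested.

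**Figure D2:**
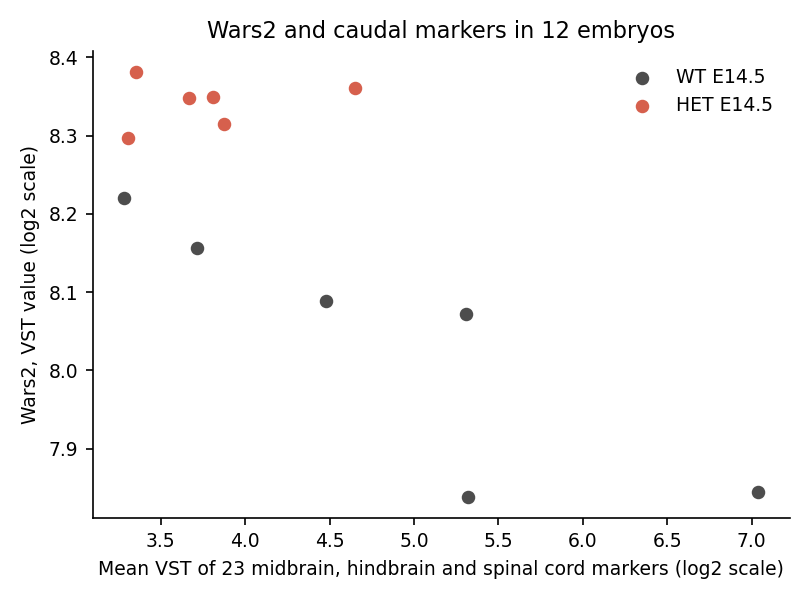
Wars2 against the mean of 23 midbrain, hindbrain and spinal cord markers in 12 embryos. Both axes are VST values on a log2 scale, and points are embryos (grey WT, red HET). The 3 WT embryos with marker means from 5.31 to 7.04 lie at Wars2 values of 8.07 or less, and all HET embryos lie at 8.30 or more.

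Wars2 also varied less between HET mice than between WT mice. From the youngest to the oldest age, the SD of Wars2 was 0.16, 0.17, 0.16 and 0.15 between WT mice and 0.031, 0.070, 0.10 and 0.051 between HET mice. Pooled over the ages, the SD was 0.16 in WT and 0.069 in HET, a ratio of 2.35, and 0.347% of the 17311 genes tested had a ratio as high. The median ratio over all genes was 1.12, and those of the other members lay between 0.90 (Yars2) and 1.35 (Ears2). With the 3 ages after birth alone, the Wars2 ratio was 2.10, the share of genes as high 4.21% and the median 1.15. The WT embryo SD includes the 3 libraries with high midbrain, hindbrain and spinal cord markers. Wars2 was at 7.84 to 8.07 in these and at 8.09 to 8.22 in the other 3. These ratios come from the same Wars2 values that chose the gene, so they describe where it stands and are no test. By its spread in WT, Wars2 was near the middle of all genes, with 46.3% of genes below it, and by its spread in HET it was among the least variable, with 7.47% below it.

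The order of the group means of Wars2 was HET at E14.5 (8.34), 6 months (8.29), 12 months (8.25) and 1 month (8.20), followed by WT at E14.5 (8.04), 6 months (7.917), 12 months (7.917) and 1 month (7.84). The ages thus stood in the same order in both genotypes. Each neighbouring pair in this order overlapped and differed by less than the larger of its 2 SDs, the widest gap being the 0.16 between HET at 1 month and WT at E14.5.

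From E14.5 to 1 month, Wars2 fell in WT, and its fall in HET was called in some fits only. In WT it fell by 0.20 (95% interval −0.34 to −0.047, limma adjusted p = 0.0137), and by 0.31 without the 3 WT embryo libraries (adjusted p = 0.000968). In HET the difference was −0.15 (−0.30 to 0.0019, adjusted p = 0.0629). This call was lost without replicate 6 of HET at 1 month (−0.13, adjusted p = 0.126) and under median centring (−0.11, adjusted p = 0.148). At an adjusted p below 0.1, the largest share of all genes was called at this step, 44.1% higher and 41.9% lower in WT and 44.1% higher and 41.8% lower in HET. From 1 to 6 months Wars2 differed by 0.076 in WT and 0.090 in HET (adjusted p = 0.560 and 0.475), and from 6 to 12 months by −0.00034 and −0.039 (adjusted p = 1 and 0.917).

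The other 8 members had no called genotype difference. At E14.5, 0 of 8 were called, where 0.00593% of all genes were called, and at 1, 6 and 12 months 0 of 8, where 0.139%, 0.0927% and 0.0463% of genes were called. The 1 gene called at E14.5 was lower in HET, so no gene was called higher there. With shares this low, 0 of 8 does not set these members apart from other genes. With the 4 ages averaged in a fit of all 48 mice, 0 of 8 were called against 3% of all genes, and their differences had a median of 0.013. By an unadjusted p below 0.05 in limma, 0 of 8 would pass at E14.5, 2 at 1 month (Fars2 and Ears2), 1 at 6 months (Sars2), 0 at 12 months and 2 for the average (Fars2 and Iars2). Over all genes, 4.56%, 8.8%, 7.59%, 11.6% and 12.5% would pass in the same order. Without the 3 WT embryo libraries, 0 of 8 were called at E14.5 or for the average, and the averaged differences of Fars2 and Iars2 were 0.066 and 0.027. None of the 8 had a genotype difference that changed with age (0.00%, 0.00% and 0.0578% of all genes called at the 3 steps). By an unadjusted p below 0.05, only Yars2 from 6 to 12 months would pass, a step where 8.68% of all genes would.

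Fars2, which encodes the mitochondrial phenylalanyl-tRNA synthetase (chromosome 13, plus strand, 36209280 to 36629461, 7 exons), came closest to Wars2. At 1 month, its lowest, median and highest values were 8.16, 8.28 and 8.38 in WT and 8.30, 8.47 and 8.62 in HET. All but 1 HET mouse were above all WT mice, and the difference was 0.19 (95% interval 0.051 to 0.32, limma adjusted p = 0.406). The difference was 0.058 at E14.5, 0.12 at 6 months and −0.037 at 12 months, and averaged over the ages it was 0.083 (0.016 to 0.15, adjusted p = 0.243). The WT 12 month group held 1 high mouse, replicate 6, at 8.87, and without it the averaged difference was 0.099 and was called (adjusted p = 0.0772). No other fit that left out a single sample called Fars2, and it was not called without the 3 WT embryo libraries.

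Ears2, the gene for the mitochondrial glutamyl-tRNA synthetase (chromosome 7, minus strand, 129180727 to 129210777, 7 exons), was higher in HET by 0.15 at 1 month (0.0031 to 0.29, limma adjusted p = 0.553), and 4 of 6 HET mice were above all WT mice. Its differences were 0.041 at E14.5, −0.029 at 6 months and −0.11 at 12 months. Sars2, the gene for the mitochondrial seryl-tRNA synthetase (chromosome 7, plus strand, 29527010 to 29538871, 16 exons), was lower in HET at 6 months by 0.13 (−0.27 to −0.0024, adjusted p = 0.650). There 3 of 6 HET mice lay below all WT mice, which ranged from 7.59 to 7.83, and HET mice ranged from 7.53 to 7.62. Iars2, the gene for the mitochondrial isoleucyl-tRNA synthetase (chromosome 1, minus strand, 187108605 to 187153275, 23 exons), had a small averaged difference of 0.046 (0.0016 to 0.090, adjusted p = 0.377). Exons of Iars2 overlap those of Rab3gap2 on the opposite strand.

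Yars2, Nars2 and Mars2, the genes for the mitochondrial tyrosyl-, asparaginyl- and methionyl-tRNA synthetases, had averaged differences of 0.014, 0.023 and −0.012 (limma adjusted p = 0.916, 0.874 and 0.947). Their 95% intervals were −0.046 to 0.073, −0.052 to 0.099 and −0.085 to 0.062. Yars2 lies on chromosome 16 (plus strand, 16303058 to 16309733, 4 exons), Nars2 on chromosome 7 (plus strand, 104100015 to 104213271, 14 exons) and Mars2 on chromosome 1 (plus strand, 55294021 to 55296902, 1 exon). Exons of Nars2 overlap those of the noncoding gene C230038L03Rik on the opposite strand. For Yars2, the step of the difference from 6 to 12 months, from 0.072 to −0.11, was −0.18 (−0.35 to −0.010, adjusted p = 0.542).

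**Figure D3:**
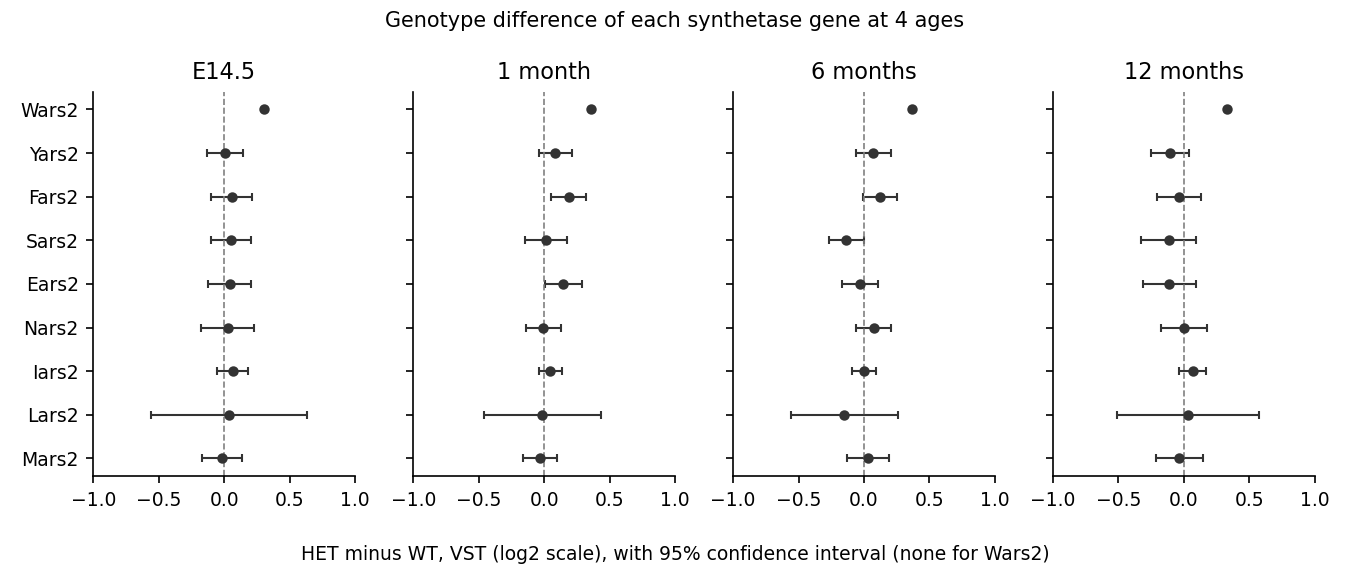
HET minus WT for the 9 genes at 4 ages. The x axis gives the difference of VST means on a log2 scale with its 95% confidence interval from limma (none for Wars2, which was chosen on this difference), in 1 panel per age, with 6 mice per genotype. Wars2 lies at 0.31 to 0.37, and the other 8 genes lie between −0.15 and 0.19 with wide intervals for Lars2.

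From E14.5 to 1 month, the members moved in different directions. In WT, 3 of 9 rose (Nars2, Iars2 and Mars2), 3 fell (Wars2, Sars2 and Ears2) and 3 did not pass the test, where 86% of all genes passed, 44.1% higher and 41.9% lower. The median change in WT was 0.069, with 0.036 over all genes. Without the 3 WT embryo libraries, 2 rose and 3 fell, with a median of 0.023 against 0.033, and 42.5% of all genes were called higher and 40.6% lower. In HET, 5 rose (the same 3 with Yars2 and Fars2) and 3 fell (the same 3), where 85.9% of all genes passed, with a median of 0.15 against 0.038 over all genes. Lars2 passed in neither genotype.

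Ears2 showed the largest change. WT embryos had a lowest, median and highest value of 8.63, 8.82 and 9.02, and WT mice at 1 month 7.77, 7.97 and 8.10, with no overlap. It fell by 0.87 in WT (SE 0.076, limma adjusted p = 1.63e-14) and by 0.76 in HET (adjusted p = 1.03e-12). At later ages its group means stayed between 8.06 and 8.17, with a difference of 0.18 from 1 to 6 months in WT (adjusted p = 0.11). Sars2 fell by 0.35 in WT (adjusted p = 4.33e-05) and by 0.38 in HET (adjusted p = 8.73e-06). In WT without the 3 embryo libraries, Ears2 and Sars2 fell by 0.88 and 0.40 (adjusted p = 3.46e-11 and 0.000168).

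Iars2 had the largest rise in this fit, which has no covariate. Its lowest, median and highest values were 9.99, 10.13 and 10.23 in WT embryos and 10.40, 10.55 and 10.63 in WT mice at 1 month, again with no overlap. It rose by 0.42 in WT (SE 0.044, limma adjusted p = 3.96e-12) and by 0.40 in HET (adjusted p = 1.19e-11). Mars2 rose by 0.28 and 0.27 (adjusted p = 0.000521 and 0.000818), and Nars2 by 0.21 and 0.18 (adjusted p = 0.00808 and 0.0232). Without the 3 WT embryo libraries, the Nars2 change in WT was 0.089 and its call was lost (adjusted p = 0.355), and the calls of the other 5 genes were kept, with Iars2 and Mars2 higher by 0.34 and 0.22 (adjusted p = 5.58e-08 and 0.0210). Yars2 and Fars2 rose by 0.15 and 0.17 in HET (adjusted p = 0.0173 and 0.0198), with changes of 0.071 and 0.037 in WT (adjusted p = 0.260 and 0.607), and the difference between these changes was not called for either gene (adjusted p = 0.999 for both).

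**Figure D4:**
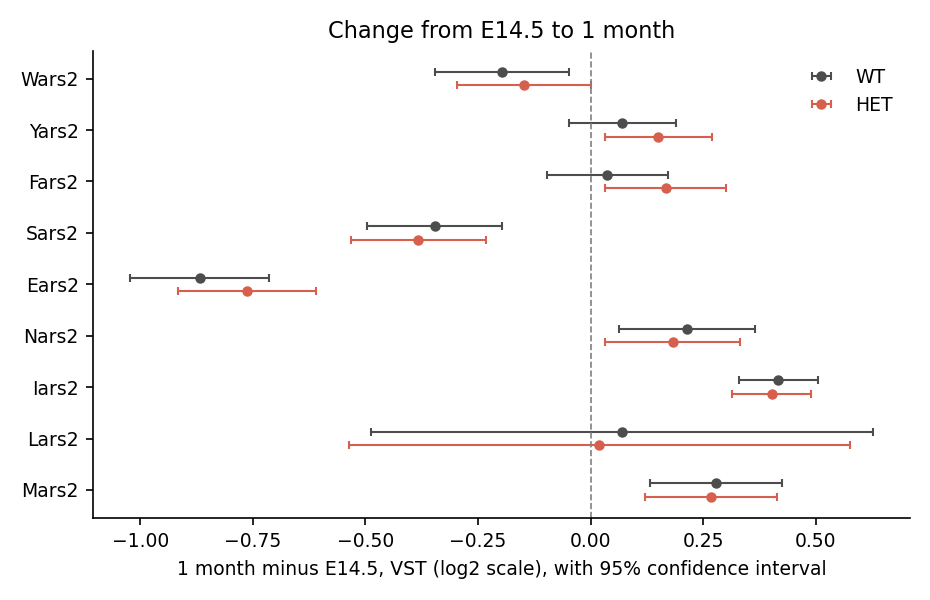
Change from E14.5 to 1 month for the 9 genes in WT (grey) and HET (red). The x axis gives the 1 month mean minus the E14.5 mean of VST values on a log2 scale, and bars are 95% confidence intervals from limma, with 6 mice per group. Ears2 falls by 0.87 and 0.76, Iars2 rises by 0.42 and 0.40, and the intervals of both genotypes overlap for each gene.

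After 1 month, 0 of 9 members were called in either genotype. From 1 to 6 months, 18.6% of all genes were called in WT and 19.4% in HET, and the member closest to the threshold was Ears2 in WT (adjusted p = 0.11). From 6 to 12 months, 0.0404% of genes were called in WT and 0.578% in HET. The largest member difference at this step was that of Fars2 in WT, 0.17 (95% interval 0.041 to 0.31, limma adjusted p = 0.418). By an unadjusted p below 0.05 in limma, 1 of 9 would pass in WT at each step (Ears2, then Fars2) and 0 of 9 in HET. Over all genes, 26.2% would pass in WT and 26.7% in HET from 1 to 6 months. From 6 to 12 months, 9.42% and 11.5% would.

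Lars2, the gene for the mitochondrial leucyl-tRNA synthetase (chromosome 9, plus strand, 123276058 to 123371782, 21 exons), stood apart from the other members in its spread. Its group means lay between 13.40 and 13.78. Its SD between mice of a group was 0.32 to 0.67, whereas those of the other members were at most 0.203. In 7 of the 8 groups, the highest and lowest mouse differed by over 1 unit. At E14.5 in WT, for instance, the lowest, median and highest values were 12.45, 13.45 and 14.17.

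The spread of Lars2 followed that of Rn45s, the 45S precursor of ribosomal RNA, which ranged from 16.52 to 19.61. After group means were subtracted, Pearson's r of Lars2 with Rn45s over the 48 mice was 0.97, and within the 8 groups of 6 mice it ranged from 0.87 to 1.00. The slope was 0.63 unit of Lars2 per unit of Rn45s, and the within-group SD of Lars2 was 0.51 before and 0.13 after the regression. The other 8 members had r between −0.34 and −0.022 with Rn45s. Values of Lars2 are therefore uncertain, and the origin of its link to Rn45s was not tested.

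With Rn45s as a covariate, a choice made after this relation was seen, Lars2 rose from E14.5 to 1 month by 0.50 in WT and 0.45 in HET (limma adjusted p = 4.69e-08 and 4.26e-07), against 0.069 and 0.020 without it (adjusted p = 0.821 and 0.949). Mean Rn45s itself fell over this step, from 18.31 to 17.62 in WT and from 18.44 to 17.75 in HET. The adjusted rise of Lars2 therefore includes the part that the covariate assigns to this fall. In the same fit Iars2 rose by 0.40 and 0.38. The averaged genotype difference of Lars2 without the covariate was −0.024 (95% interval −0.30 to 0.25, limma adjusted p = 0.972), the widest interval among the members.

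**Figure D5:**
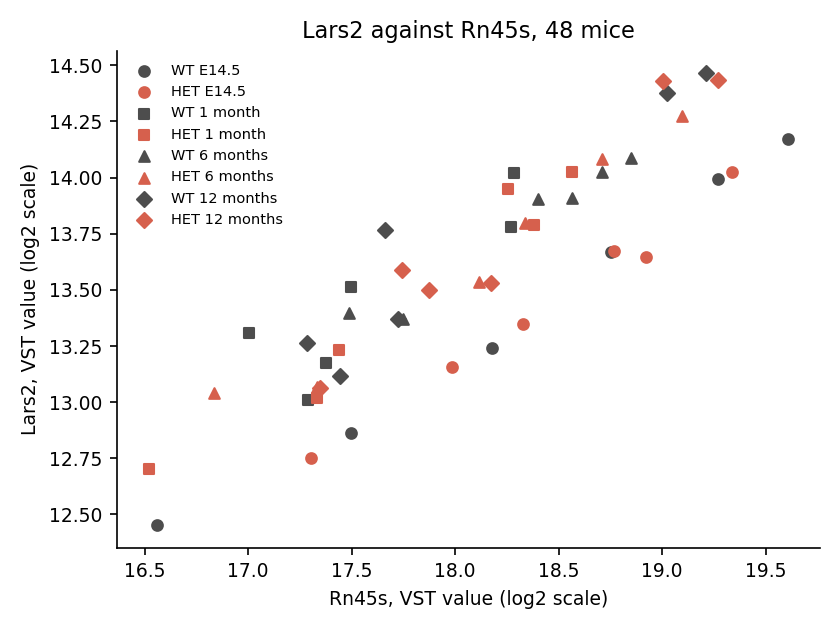
Lars2 against Rn45s in 48 mice. Both axes are VST values on a log2 scale, symbols give the age and colors the genotype (grey WT, red HET). Lars2 rises along with Rn45s in all 8 groups, with r from 0.87 to 1.00 within a group.

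Correlations between members from mouse to mouse were weak to moderate. After group means were subtracted, the 36 pairs of members had correlations from −0.36 to 0.43 with a median of 0.066, and 25 were above 0. Without Lars2, the 28 remaining pairs had a median of 0.12, and 23 were above 0. These are descriptions over 48 libraries that share a normalization. The genes closest to other members in this measure were Kcmf1 for Yars2 (r = 0.56), Chtop for Fars2 (0.76), Ddx56 for Sars2 (0.64), Lman2l for Ears2 (0.75), Ttc5 for Nars2 (0.74) and Abcd2 for Iars2 (0.67).

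For Wars2, the 5 closest genes after group means were subtracted were Ndor1 (r = 0.57), Prss16 (0.56), Sesn1 (0.54), Zfp626 (0.52) and C130050O18Rik (0.52). With age means subtracted and the genotype difference kept, they were Lyrm7 (0.74), Tmem209 (0.73), BC025920 (0.70), Csad (0.70) and Dhx34 (0.70), and Chd8 had r = −0.80. Within groups, Chd8 and Wars2 had r = −0.059. The first set of genes reads variation between mice of 1 genotype and age, and the second largely the genotype difference that chose Wars2.

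Of the nearest protein-coding genes on each side of Wars2, Tbx15, a T-box transcription factor gene that starts 1195 bases after the end of Wars2, had group means between 5.22 and 6.12 and HET minus WT differences of 0.12, −0.45, 0.13 and 0.19 at the 4 ages. Spag17, 646220 bases after the end, had differences of −0.25, −0.50, −0.33 and −0.10. Hao2 and Hsd3b1, 247829 and 281274 bases before the start, had group means of 2.14 to 2.499, close to the floor. Neither Tbx15 nor Spag17 was higher in HET at all 4 ages.

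The remaining genes of mitochondrial translation were read from lists chosen with earlier results of these data known. For genotype at single ages, 0 of their 56 genes were called by limma, with 4, 3, 0 and 4 at an unadjusted p below 0.05 in order of age. Over all genes, 0.00593%, 0.139%, 0.0927% and 0.0463% were called, and 4.56%, 8.8%, 7.59% and 11.6% had such a p-value. Averaged over the ages, 2 of 8 other mitochondrial synthetases were higher in HET, with 3% of all genes called. Vars2, the mitochondrial valyl-tRNA synthetase, was higher by 0.15 (SE 0.037, limma adjusted p = 0.0165) and Pars2, the prolyl enzyme, by 0.14 (SE 0.043, adjusted p = 0.0833). Without the 3 WT embryo libraries, these were 0.12 (adjusted p = 0.0999) and 0.11 (adjusted p = 0.242). The call of Pars2 was also lost in 19 of the 48 fits that left out a single sample. Of 18 cytosolic synthetases, 1 was lower, Sars, by 0.079 (SE 0.020, adjusted p = 0.0226), a call lost under quantile normalization (adjusted p = 0.230). Wars, the cytosolic tryptophanyl enzyme, had an averaged difference of −0.011 (95% interval −0.056 to 0.034, adjusted p = 0.911). Of 3 subunits of the glutaminyl-tRNA amidotransferase, 14 tRNA processing and modification genes and 11 translation factors, 0 were called. The 13 mRNAs encoded by mitochondrial DNA were not analysed here.

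From E14.5 to 1 month in WT, more of the other synthetases fell than rose, at a step where 86% of all genes were called, 41.9% lower and 44.1% higher. Of the 8 other mitochondrial synthetases, 5 fell and 1 rose (median −0.24), and without the 3 WT embryo libraries 6 fell and 1 rose (median −0.36). Rars2 fell by 0.73, Hars2 by 0.50, Cars2 by 0.43 and Pars2 by 0.36, and Aars2 rose by 0.55 (limma adjusted p from 9.78e-16 to 0.000173). Of 18 cytosolic synthetases, 12 fell and 2 rose (median −0.54, or −0.55 with the same counts without those libraries). The 6 fallen genes with the lowest adjusted p were Vars (−1.49), Farsa (−1.20), Tars (−0.95), Lars (−0.91), Qars (−0.83) and Mars (−0.57). Kars and Gars, whose products serve both compartments, fell by 1.09 and 0.46. The median change of the members, 0.069, lay above the medians of these lists, as did that of all genes, 0.036.

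Markers of glial cells moved at the same step. All 6 oligodendrocyte, all 6 astrocyte and all 6 microglia markers rose in WT, with median changes of 7.90, 3.62 and 2.71. The mean of these lists per WT library ranged from 6.33 to 6.89, from 8.86 to 9.20 and from 7.31 to 7.64 at E14.5, and from 13.77 to 14.18, from 13.36 to 13.53 and from 10.25 to 10.51 at 1 month. In all groups each of these markers was at least 0.5 above the floor. Their part in the changes of the synthetases was not tested.

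The partners of the synthetases were called in shares near that of all genes. Gatb and Qrsl1, subunits of the enzyme that makes glutaminyl-tRNA in mitochondria from the product of Ears2, rose by 0.44 and 0.30, and the remaining subunit, Gatc, fell by 0.48. The rise of Qrsl1 was 0.16 without the 3 WT embryo libraries (limma adjusted p = 0.0498). Of 14 tRNA processing and modification genes, 8 fell and 3 rose, and without those libraries 7 fell and 3 rose. The RNase P subunits 1110008L16Rik (Prorp), Hsd17b10 and Trmt10c fell by 0.87, 0.80 and 0.52 and the tRNA 3′ end nuclease gene Elac2 by 0.37, whereas the wobble uridine modifiers Gtpbp3 and Mto1 rose by 0.73 and 0.37. Of 11 translation factors, 8 fell and 2 rose, and without them 7 fell and 1 rose. The initiation factors Mtif2 and Mtif3 fell by 0.54 and 0.40, the elongation factors Tufm and Tsfm by 0.48 and 0.39 and the recycling factor Mrrf by 0.43, and the elongation factor Gfm1 rose by 0.48. In HET, the counts of these lists were 6 fallen and 1 risen of 8, 13 and 2 of 18, 1 and 2 of 3, 7 and 3 of 14, and 8 and 1 of 11. They stand in the order given here, with the amidotransferase after the cytosolic synthetases. Over all genes in HET, 41.8% fell and 44.1% rose.

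From 1 to 6 months, 5 of the 56 genes of these lists were called in WT and 5 in HET, where 18.6% and 19.4% of all genes were called. Here Kars rose by 0.13 in WT and 0.12 in HET (limma adjusted p = 0.0222 and 0.0279), and Gfm2 fell by 0.15 in WT (adjusted p = 0.0232). Lars and Nars rose by 0.19 and 0.13 and Tars fell by 0.15 in WT, and in HET Sars rose by 0.11 and Elac2 and Mtif2 fell by 0.13 and 0.15. Each of these 6 calls was lost in at least 1 fit that left out a single sample. From 6 to 12 months, 0 of 56 genes were called by limma in either genotype, with 4 in WT and 3 in HET at an unadjusted p below 0.05. Over all genes, 0.0404% and 0.578% were called, and 9.42% and 11.5% had such a p-value.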

How the data were processed

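RNA-seq of cortex was analysed in 48 male mice, 6 in each of 8 groups of genotype and age. Per the study's methods, the authors filtered and trimmed the reads, aligned them to mm9 with STAR 2.5.2b, quantified transcripts with Salmon 0.11.3 and processed them with DESeq2 in a model that corrected for batch. Versions are from the submitters' processing notes. The values deposited by the authors are VST values on a log2 scale for 24444 genes. Replicates 1 to 3 and replicates 4 to 6 had the same mean for each gene (largest gap 3.38e-14). A difference between those sets had thus been taken out before deposit, which can make p-values too small. The methods and the labels name different library kits. No counts were used here, so depth per gene is unknown and precision comes from the SD between 6 mice. Nothing states that the mice of a group came from separate litters.

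Each age was fitted with limma 3.58.1 (R 4.3.3) with an intensity trend, leaving out genes with a mean under 0.5 above the floor of 2.1433, and calls were made at a Benjamini-Hochberg adjusted p below 0.1. The average over ages, the steps between ages and their difference between genotypes came from 1 fit of all 48 samples. The fits were tested on simulated data. The members and gene lists were chosen with earlier results of these data known. Named genes are the 9 members, up to 6 called genes of each list in order of adjusted p, the genes most correlated with the members, the 2 nearest protein-coding genes on each side of Wars2, and Chd8. Some genes that this rule selects are not reported here. Gene positions and exons are from the GENCODE annotation of mm9, promoters from RefSeq (all 9 members matched). The alternatives were a replicate block, the set of replicates or marker mean as a covariate, other filters, variance settings and normalizations, 1 fit of all samples or only the samples compared, a threshold of 0.05, and leaving out each sample. Rn45s as a covariate and leaving out 3 WT embryo libraries were chosen after the data were seen. Python 3.11.15, numpy 2.4.6, pandas 2.3.3 and matplotlib 3.10.9 were used.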

Additional observations from a re-analysis of the deposited data

Results flagged for a closer look

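Of 72 groups of 6 mice, 1 held a mouse far from the others, and chance alone marks about 1 group in 20 by this measure. Nars2 in WT at 12 months was 7.91 in replicate 2, and the nearest mouse was at 8.30, so the gap made up 0.705 of the range of the group.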

How the results depend on the processing

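Of 2064 values recomputed for 148 results, 34 moved or crossed the threshold and 0 reversed. Without the 3 WT embryo libraries with high midbrain, hindbrain and spinal cord markers, the Wars2 difference at E14.5 moved to 0.19. Each other alternative left it between 0.21 and 0.34, and leaving out single samples moved it within 0.27 to 0.34 at E14.5, 0.31 to 0.40 at 1 month, 0.32 to 0.40 at 6 months and 0.30 to 0.39 at 12 months. Leaving out single samples gave 0 to 1 called members other than Wars2 for the averaged genotype, the 1 being Fars2 without WT 12 month replicate 6. From 1 to 6 months in WT, 1 member (Ears2) was called under quantile normalization, 1 under median centring, and 0 to 1 when single samples were left out (in 7 of 48 fits). The cause of these moves was not tested. The fall of Wars2 in HET after E14.5 lost its call under median centring (−0.11, adjusted p = 0.148), at a threshold of 0.05, and without HET 1 month replicate 6. Sars lost its averaged call under quantile normalization (−0.077, adjusted p = 0.230). Quantile normalization also moved the median change of all genes from E14.5 to 1 month from 0.036 to −0.087 in WT and from 0.038 to −0.090 in HET, and the calls of the members at this step were kept.

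Counts over all genes moved between settings, and with so few members their own counts could move little at these low shares. A fit of all 48 samples called 93, 37, 16 and 520 genes for genotype at E14.5, 1, 6 and 12 months, against 1, 24, 16 and 8. Other settings gave 0 to 3 genes at E14.5, 13 to 29 at 1 month, 4 to 30 at 6 months and 1 to 13 at 12 months. From 6 to 12 months, they gave 1 to 10 genes against 7 in WT and 49 to 592 against 100 in HET, and 2 to 10 against 10 for the difference between genotypes. Same-numbered WT and HET samples had mean correlations of 0.23, 0.018, 0.045 and −0.034 at the 4 ages after group means were removed. At 1, 6 and 12 months, 0, 1 and 0 of 6 pairs were over 0.1. At E14.5, 4 of 6 pairs were over 0.1, and 4 of 6 WT samples correlated best with the HET sample of their own number. The main fits did not pair the samples, and whether the numbers pair them at E14.5 was not tested. With the replicate number as a block, the calls of the members were as reported, with 0 of 8 for genotype at each age, and the calls over all genes numbered 2, 13, 30 and 2 at the 4 ages. Depth per gene is unknown, so no limit from counting can be given.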
